A study of Mus musculus with 69 samples.

Results

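The difference between the IL-4 responses of SPRET and C57 macrophages was measured gene by gene. It was defined as the change in SPRET from basal conditions to 24 hours of IL-4, minus the same change in C57. It rests on 12 of the 69 samples in the series, which are the 3 basal and 3 IL-4 RNA-seq libraries of each of these strains, chosen by their labels. A separate time course gave 8 more libraries at the same times, which were used as a check, and F1 C57 × SPRET cells gave 4.

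The cells were bone marrow–derived macrophages (BMDMs) of female C57BL/6J (C57) and SPRET/EiJ (SPRET) mice, 8 to 12 weeks old. Bone marrow was grown into macrophages for 7 days with M-CSF, the growth factor that drives this lineage, supplied in part by medium from L929 cells. Basal cells had no cytokine and IL-4 cells had 20 ng/ml of mouse IL-4 for 24 hours. C57 is the reference laboratory strain, and SPRET is an inbred strain of a separate mouse species, Mus spretus, so that the 2 genomes differ at very many positions. No gene was edited and no line was cloned. The methods call the libraries of a group biological replicates, but how they map to animals was not given in the sources used here, so p-values measure the spread between libraries only.

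IL-4 binds a receptor made of IL4Rα and the common gamma chain, and Janus kinases attached to the receptor phosphorylate STAT6. STAT6 then enters the nucleus and turns on genes of "alternative activation", a macrophage state known for arginase, lectin receptors, chitinase-like proteins and chemokines that call T helper 2 cells and eosinophils. SOCS proteins are induced by the same pathway and restrain it. Later factors, among them EGR2, carry the response on.

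The C57 libraries held 7.02 to 18.3 M tags (M, 1e+06 tags) and the SPRET libraries 17.3 to 22.5 M, so the depths were mostly lower in C57 and overlapped. Pearson r between replicates was 0.995 to 0.998 across genes on the log2(TPM + 1) scale, where TPM is a transcript level scaled to gene length and to the total of the library. Of 10 macrophage markers, none was at 0 in any of the 4 groups and Lyz2 was highest, while Fcgr1 (CD64) was at 70.2 and 57.1 TPM in C57 and at only 1.42 and 0.356 TPM in SPRET (means of basal and IL-4). Of 24537 genes, 11907 reached 1 TPM in 2 or more libraries of the table and were tested, by limma on log2(TPM + 1). A gene was called at an adjusted p under 0.05 (limma, Benjamini-Hochberg over all genes tested) with a difference beyond 2-fold, which is 1 on the log2 scale. Differences are on that scale throughout. The added 1 TPM shrinks the response of a low gene, so a difference can come out too small, or too large where the gene is low in 1 strain. With 0.1 TPM in its place, Ccl12, Ccl2, Cxcl10, Olr1 and Slc40a1 were no longer called. The median difference over all genes tested was 0.156, made of -0.0384 in C57 and 0.108 in SPRET. A single difference should be read against that shift. Median-ratio scaling took it to 0.00252.

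IL-4 induced 271 genes in C57 (2.28% of those tested) and 276 in SPRET (2.32%), and it repressed 182 (1.53%) and 193 (1.62%). The responses nevertheless differed for 411 genes. For 218 of them (1.83% of genes tested) the SPRET response lay above that of C57, which is called a positive difference here, and for 193 (1.62%) it lay below, a negative difference. Positive differences made up 53.0% of the calls, against 36.5% after median-ratio scaling (152 and 265 genes) and 38.6% after quantile normalization. All 152 positive calls after median-ratio scaling were among the 218, and 191 of the 193 negative calls were kept.

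Few of the 411 genes passed the call in the same direction in both strains. This follows in part from the choice of genes, since all 411 had responses that differed beyond 2-fold. The overlap of the 2 responses over all genes tested is not given here. Of the 218 genes with a positive difference, 77 were induced in SPRET alone, 49 were repressed in C57 alone, and 67 passed the call in neither strain. A further 23 were induced in both, where the median response was 2.32 in C57 and 4.62 in SPRET. The remaining 2 were Slc40a1, the iron exporter ferroportin, which was repressed in both, and Tmem176b, which went in opposite directions. Of the 193 genes with a negative difference, 79 were induced in C57 alone, 57 were repressed in SPRET alone, 39 passed in neither strain, 13 were induced in both and 4 were repressed in both. The last was Fos, which was induced in C57 and repressed in SPRET. "Alone" here means past the call in 1 strain and not in the other, and in each of these genes the difference itself was called.

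**Figure D1:**
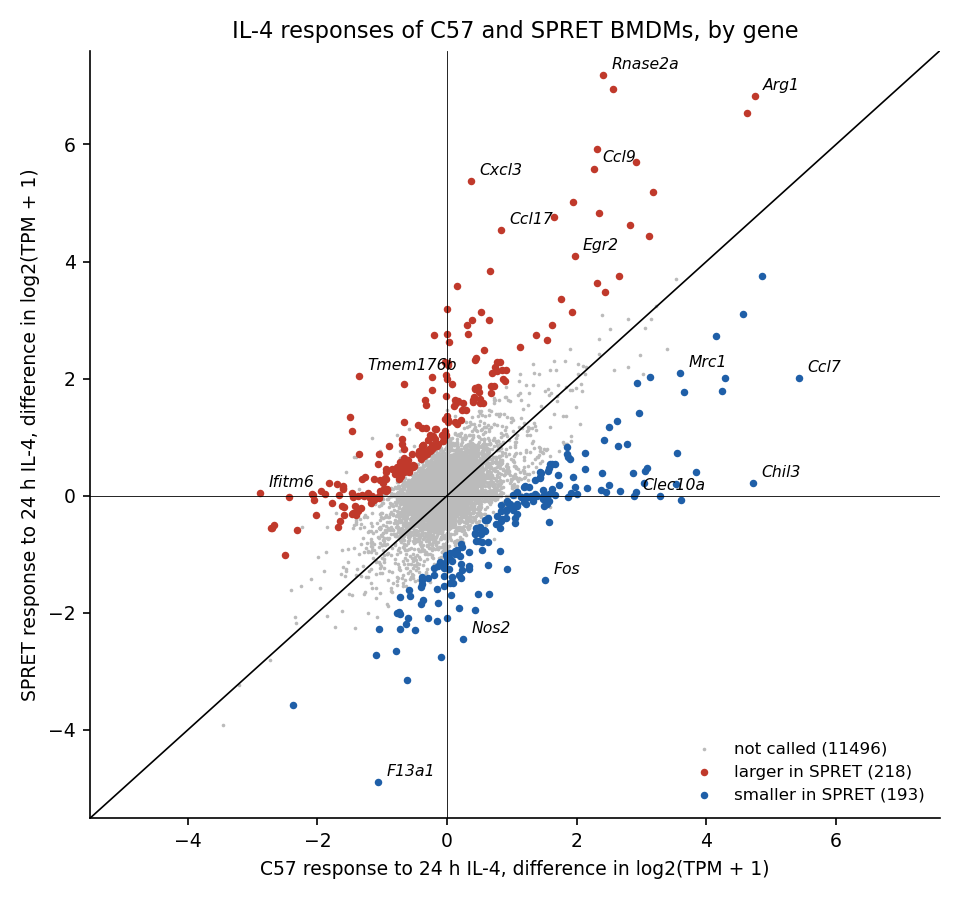
Each point is 1 of the 11907 genes tested, with its response to 24 hours of IL-4 in C57 on the x axis and in SPRET on the y axis, both as differences in log2(TPM + 1). The 218 red genes lie above the line of equal response and the 193 blue genes below it, and many of both lie close to an axis, where 1 strain had a response near 0.

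IL-4 marker genes went both ways. Of the 20 genes on a list of known alternative-activation markers, all were tested in the 5-strain libraries. Of these, 6 had a positive difference and 9 a negative one, and the other 5 were not called. For this and every list below, 1.83% of all genes tested were positive and 1.62% negative in those libraries. In the time course these shares were 3.09% and 3.14%. The median difference of the list was -0.215, against 0.156 for all genes. It was -0.397 after median-ratio scaling and 0.0777 in the time course, where 9 of the 20 were called positive and 7 negative. Retnla, Cd36 and Itgax, not called in the 5-strain libraries, were among the positive ones there, at 2.62, 1.01 and 1.06. Differences in RNA level of bulk cells cannot be told apart from differences in the share of cells that express a gene, here and for every gene that follows.

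Chitinase-like genes, whose secreted products resemble chitinases, had the most negative difference of the genes named. Chil3 (Ym1, chr3:106147554-106167564 in mm10) was at 63.6, 71.2 and 61.3 TPM in basal C57 and at 1726, 1855 and 1667 TPM after IL-4. In SPRET it was at 0.363, 0.402 and 0.301 TPM before and 0.493, 0.505 and 0.712 TPM after. The strains did not overlap under either condition, and SPRET stayed below 1 TPM throughout. The difference was -4.51 (SE 0.31, adjusted p = 3.1e-11 by limma). Chil4 (Ym2) went from 0.0197 to 3.07 TPM on average in C57 and stayed under 1 TPM in SPRET, with a difference of -1.83. Chil3 and Chil4 are close copies, and how reads that fit both were shared is not given in the sources used here.

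Lectin receptors of the same program moved apart. Mrc1, the mannose receptor, rose in both strains, from 15, 15.9 and 13.9 TPM to 204, 199 and 172 TPM in C57 and from 27.3, 29.3 and 26.3 TPM to 116, 123 and 124 TPM in SPRET. SPRET thus started above C57 and ended below it in every library, and the difference was -1.50 (SE 0.12, adjusted p = 7.4e-10 by limma). Clec10a and Mgl2 encode galactose-type lectins. Clec10a rose from 4.38, 4.26 and 4.53 to 34.9, 37.6 and 44.1 TPM in C57, whereas SPRET libraries were at 16.9, 16.9 and 16.7 TPM before and at 15.7, 17.2 and 17.7 TPM after. Basal SPRET was above basal C57 and treated SPRET was below treated C57, without overlap, for a difference of -2.88 (adjusted p = 3.7e-09 by limma). Mgl2 went from 2.06, 2.28 and 2.88 to 46.6, 48.3 and 47.1 TPM in C57 and was listed at 0 in all basal SPRET libraries, then at 0.267, 0.358 and 0.372 TPM. Its difference was -3.42, but it was -0.73 in the time course (adjusted p = 0.069 by limma). Clec7a (dectin-1), the receptor for fungal beta-glucan, had the opposite sign. It rose from 75.7, 76.1 and 79.8 to 745, 738 and 636 TPM in C57 and from 25.3, 25.6 and 27.2 to 951, 976 and 1022 TPM in SPRET, so that the lower strain became the higher one, with a difference of 2.01 (SE 0.09, adjusted p = 8.0e-15 by limma).

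Of the wider list of 21 C-type lectins, 16 were tested, with a median of -0.38, and 6 were called negative against 1 positive, Clec7a. Besides the 3 lectins above, Clec4a1, Clec12a and Olr1 had differences of -1.44, -1.29 and -1.40. In the time course these were 0.16, -0.34 and -0.80, none of them called, and of 15 lectins tested there 1 was positive and 3 were negative, with a median of -0.586. The difference of Olr1 was -0.42 with a pseudocount of 0.1 TPM (adjusted p = 0.383 by limma). Clec12a, an inhibitory receptor for uric acid crystals and dead cells, was repressed in SPRET (response -2.01) and had a response of -0.72 in C57. Clec4n (dectin-2), which pairs with the Fc receptor gamma chain, was repressed in both strains, by responses of -2.33 and -2.18, with a difference of 0.16 (SE 0.08, adjusted p = 0.13 by limma).

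The other called markers of the program were Ch25h, Rbp4, Flt1 and Cdh1 on the negative side and Arg1, Il4i1, Ccl17, Ccl22 and Ccl24 on the positive side. All were induced in both strains except Ccl17, which was called in SPRET only. Ch25h, which makes 25-hydroxycholesterol, went from 0.71 ± 0.0501 to 29.4 ± 0.705 TPM in C57 (mean ± SD, n = 3) and from 4.59 ± 0.505 to 35.8 ± 2.24 TPM in SPRET, a difference of -1.43. Cdh1 (E-cadherin), a marker of IL-4–fused macrophages, was at most 0.227 TPM in basal C57 and at least 5.43 TPM in basal SPRET. It reached 9.08 and 25.9 TPM, and its difference of -1.09 became 0.1 with a pseudocount of 5 TPM. Flt1, a receptor for VEGF, had a difference of -1.001 that lay at the edge of the call. Its size fell under 2-fold when any of 7 of the 12 libraries was left out, to -0.957 without C57 IL-4 replicate 1.

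Of the genes that carry and restrain the IL-4 signal, only Socs1 was called. Socs1, which blocks the Janus kinases, was at 1.88, 3.16 and 1.47 TPM in basal C57 and at 22.4, 21.4 and 23.1 TPM after IL-4. In SPRET it was at 0.342, 0.28 and 0.216 TPM and then at 73.6, 64.8 and 59 TPM. SPRET was below C57 before IL-4 and above it after, in every library, with a difference of 2.79 (SE 0.28, adjusted p = 3.2e-08 by limma). It was 1.98 in the time course at 24 hours, 1.59 at 1 hour and 0.98 at 6 hours. The list of receptor and JAK-STAT genes held 15 genes, of which 14 were tested and 13 were not called, and the list median was 0.0403, or -0.148 after median-ratio scaling. In the time course 2 genes of the list were called positive and none negative. Il4ra, the receptor chain, had a difference of -0.89 and Stat6 one of -0.09 (adjusted p = 6.4e-09 and 0.5 by limma). After median-ratio scaling Il4ra was at -1.08 and was called, and 1 gene of the list was positive and 1 negative. Cish, another feedback gene, had responses of 3.53 and 3.69 and a difference of 0.16 (adjusted p = 0.38 by limma). These 3 genes were picked after their values were seen, for their place in the pathway.

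Transcription factors of the response were mostly not called in the 5-strain libraries, but Egr2 was. Of 21 factors 20 were tested, 1 was positive and 3 negative, with a median of 0.0893 that was -0.0995 after median-ratio scaling. In the time course all 21 were tested, 4 were positive and 2 negative, with a median of -0.262. Irf4, Batf3 and Klf2, added after their values were seen, were called positive there, at 2.80, 2.10 and 1.22. They were at 0.62, 0.71 and -0.12 in the 5-strain libraries. Egr2, which binds DNA in the later phase of the IL-4 response, was at 14.4, 13.1 and 12.5 TPM in basal C57 and at 62, 55.5 and 48.7 TPM after IL-4. In SPRET it went from 1.87, 2.2 and 1.97 TPM to 50.2, 50.9 and 50 TPM. Treated levels overlapped between the strains, so that its difference of 2.12 (SE 0.13, adjusted p = 1.9e-12 by limma) came with a basal level that was lower in SPRET. The time course gave 1.98 at 24 hours. Msx3, a homeobox gene, was induced in C57 to 17.8, 20.7 and 15.8 TPM and listed at 0 in 4 of 6 SPRET libraries, with a difference of -3.28. Nr1h3 (LXRα), a sensor of oxysterols, was repressed in SPRET alone, from 188 ± 4.94 to 84.7 ± 1.57 TPM, with a difference of -1.11. Pparg, which was added after its value was seen, had responses of 2.34 and 2.42. Klf4 had a difference of 0.34 and -1.48 in the time course. Btbd11 did not pass the filter on low values.

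Arginine can be turned into ornithine by arginase or into nitric oxide by NOS2, and the strains differed at Arg1 and at Nos2. Arg2, the other arginase gene, had the opposite sign to Arg1, at -0.86 (adjusted p = 2.7e-08 by limma), inside the 2-fold limit. It was -1.04 after median-ratio scaling and -0.09 in the time course. Of 16 arginine and polyamine genes, all tested, Arg1 was positive and Nos2 negative, with a median of 0.28. Arg1 rose from 124, 117 and 137 TPM to 3341, 3507 and 3386 TPM in C57 and from 6.38, 7.33 and 5.87 TPM to 809, 809 and 939 TPM in SPRET. SPRET stayed below C57 under both conditions while its level rose by a larger factor, with ratios of means of 131 in SPRET and 27 in C57, and the difference was 2.08 (SE 0.23, adjusted p = 1.0e-07 by limma). Nos2 was at 56.6, 56.4 and 52 TPM in basal C57 and at 65, 63.5 and 67.9 TPM after IL-4, which did not pass the call. It fell from 26.4, 21.7 and 25.6 TPM to 3.79, 3.2 and 3.99 TPM in SPRET, below every C57 library. That difference of -2.70 (adjusted p = 9.4e-16 by limma) was not called in the time course, where it was 0.72 (adjusted p = 0.15 by limma) and no library exceeded 9.14 TPM. Slc7a2, which carries arginine into the cell, had a difference of -0.57, inside the 2-fold limit, and 0.37 in the time course.

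Chemokines differed widely and in both directions. Of 24 chemokines, 21 were tested, 10 had a positive difference and 5 a negative one, with a median of 0.488. Within 2 gene clusters all tested members shared a sign in the 5-strain libraries. All 5 tested genes of a CXC cluster on chromosome 5 (chr5:90768518-90905938, mm10), Cxcl1, Cxcl2, Cxcl3, Pf4 and Ppbp, were positive. All 4 tested genes of a CC cluster on chromosome 11 (chr11:82035577-82116799), Ccl2, Ccl7, Ccl8 and Ccl12, were negative. These regions were drawn after the values were seen, and no other gene was tested in either. Signs were the same after median-ratio scaling and quantile normalization, but Ccl2 was at 0.12 in the time course (adjusted p = 0.81 by limma).

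Cxcl3, a ligand of the neutrophil receptor CXCR2, had the largest positive difference of the genes named. It was at 22.4, 16.1 and 20.3 TPM in basal C57 and at 23.7, 25.6 and 27 TPM after IL-4, which did not pass the call. In SPRET it went from 40.8, 32.3 and 40.5 TPM to 1585, 1567 and 1661 TPM. The treated SPRET libraries were far from the other 9, with a difference of 5.01 (SE 0.15, adjusted p = 7.0e-18 by limma) and one of 4.60 in the time course (adjusted p = 1.3e-07 by limma). Its neighbours Cxcl2 and Cxcl1 act on the same receptor. Cxcl2 went from 23.2 ± 3.53 to 190.5 ± 7.2 TPM in SPRET and was at 11.4 ± 0.839 and 15.2 ± 1.21 TPM in C57. Cxcl1 went from 10.6 ± 0.982 to 55.8 ± 3.23 TPM in SPRET and was at 1.95 ± 1.17 and 1.77 ± 0.343 TPM in C57. Their differences were 2.62 and 2.32. Pf4 (platelet factor 4) and Ppbp, best known from platelets, had differences of 2.36 and 2.60. Pf4 stayed higher in C57 under both conditions, at 452 ± 31.2 TPM after IL-4 against 77.3 ± 1.27 TPM in SPRET.

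The CC cluster encodes monocyte attractants (MCPs) that act mainly on CCR2 and related receptors. Ccl7 rose from 6.31, 6.3 and 5.74 TPM to 330.5, 322 and 269.7 TPM in C57 and from 0.524, 0.514 and 0.579 TPM to 5.16, 4.86 and 5.62 TPM in SPRET. Every SPRET library after IL-4 was below every basal C57 library, and the difference was -3.42 (SE 0.13, adjusted p = 2.9e-16 by limma). Ccl8 went from 60.3 ± 3.09 to 1154 ± 102 TPM in C57 and from 2.04 ± 0.719 to 9.28 ± 0.717 TPM in SPRET, a difference of -2.45. Ccl12 and Ccl2 had differences of -1.46 and -1.88, but of -0.43 and -0.82 with a pseudocount of 0.1 TPM, where neither was called (adjusted p = 0.384 and 0.099 by limma), and all 4 genes were induced in both strains. Ccl2 was 0.12 in the time course (adjusted p = 0.81 by limma), and Ccl8 was -1.20 (adjusted p = 0.08 by limma). The genes of this cluster resemble each other, and reads from 1 may be counted to another.

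Chemokines of the IL-4 program that attract T helper 2 cells and eosinophils were positive. Ccl17 was listed at 0 in all 6 basal libraries, at 0.659, 1.05 and 0.666 TPM in C57 after IL-4 and at 22.3, 21 and 23.1 TPM in SPRET after IL-4. Its difference was 3.70 (SE 0.20, adjusted p = 3.1e-13 by limma), and 4.111 in the time course. Its size depends on the pseudocount, since the basal libraries are at 0. Ccl22, the other ligand of CCR4, reached 8.25 ± 0.422 TPM in C57 and 49.8 ± 1.69 TPM in SPRET, from at most 1.56 TPM before, a difference of 1.79. Ccl24 (eotaxin-2), a CCR3 ligand, reached 28.9 ± 4.3 TPM in C57 and 98 ± 7.15 TPM in SPRET, a difference of 1.90. Ccl9, a ligand of CCR1, rose from 83.5, 80.7 and 87 TPM to 418, 410.2 and 387 TPM in C57 and from 2.24, 2.61 and 1.99 TPM to 150.1, 153 and 166 TPM in SPRET. SPRET was lower under both conditions, and the gap shrank, for a difference of 3.33 (SE 0.08, adjusted p = 2.3e-19 by limma). Cxcl10, an interferon-induced ligand of CXCR3, was repressed in C57 and was under 1 TPM in SPRET, with a difference of 1.25, or of 0.99 with a pseudocount of 0.1 TPM, which was not called. Cxcl14 was under 1 TPM in C57 and fell in SPRET from 50.6 ± 2.02 to 22 ± 1.02 TPM, with a difference of -1.38.

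**Figure D2:**
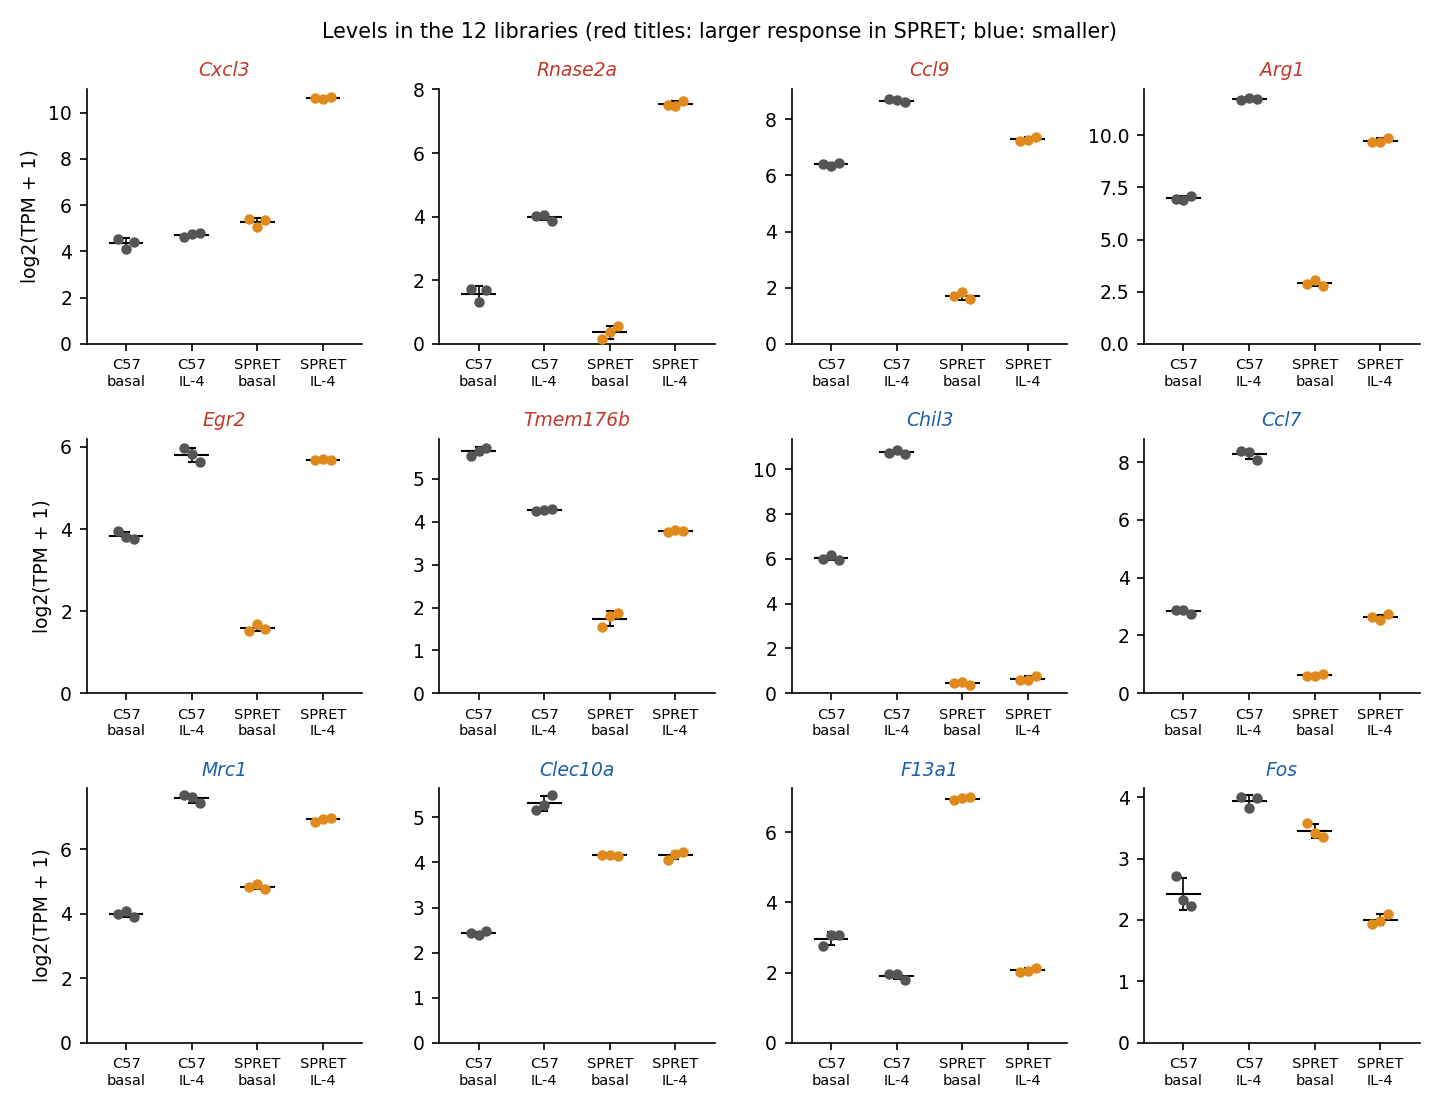
Levels of 12 genes in the 12 libraries, as log2(TPM + 1) on the y axis by strain and condition on the x axis, with grey points for C57 and orange points for SPRET, a black bar at the mean of the 3 libraries and error bars of 1 SD. Cxcl3 and Rnase2a are highest in treated SPRET, Arg1, Ccl9 and Egr2 start lower in SPRET and narrow or close the gap, and Chil3 stays near 0 in SPRET.

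Ccl17 and 2 further genes with a large positive difference carry the letters TTCNNNNGAA, the core that STAT6 prefers, in the 300 bases from 250 before to 50 after a RefSeq transcription start. Of the 20 genes named for the largest differences, 17 had a RefSeq window and these 3 held the motif, which is why they are shown. Sequences are RefSeq promoters of GRCm38.p6, the same assembly as mm10, which is the C57BL/6J reference, read 5′ to 3′ on the gene's strand. Capitals mark the motif. Ccl17 lies at chr8:94810203-94810502 on the plus strand, Gm15056 at chr8:20902407-20902706 on the minus strand and Serpina3i at chr12:104262872-104263171 on the plus strand. The SPRET sequence was not used here.
Ccl17: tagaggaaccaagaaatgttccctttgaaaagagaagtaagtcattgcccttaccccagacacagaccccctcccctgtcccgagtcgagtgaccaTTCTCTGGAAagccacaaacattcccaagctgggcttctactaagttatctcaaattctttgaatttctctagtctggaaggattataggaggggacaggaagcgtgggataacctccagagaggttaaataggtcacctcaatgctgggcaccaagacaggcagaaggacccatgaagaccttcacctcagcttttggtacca
Gm15056: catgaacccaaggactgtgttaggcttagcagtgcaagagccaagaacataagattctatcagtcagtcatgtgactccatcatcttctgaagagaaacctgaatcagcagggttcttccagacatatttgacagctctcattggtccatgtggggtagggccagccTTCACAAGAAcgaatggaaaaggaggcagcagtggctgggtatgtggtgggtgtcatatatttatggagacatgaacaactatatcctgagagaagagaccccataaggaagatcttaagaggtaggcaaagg
Serpina3i: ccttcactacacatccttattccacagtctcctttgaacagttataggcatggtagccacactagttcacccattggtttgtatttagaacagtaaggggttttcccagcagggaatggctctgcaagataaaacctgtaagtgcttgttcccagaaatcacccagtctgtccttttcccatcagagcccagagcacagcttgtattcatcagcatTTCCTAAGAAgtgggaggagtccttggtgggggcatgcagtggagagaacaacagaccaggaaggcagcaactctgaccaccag

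Gm15056 went from 5.39, 2.15 and 4.69 TPM to 22.9, 24.7 and 21.9 TPM in C57 and from 4.25, 2.63 and 2.33 TPM to 229.5, 257 and 237 TPM in SPRET, with a difference of 3.61 (adjusted p = 1.1e-10 by limma). Serpina3i, of a family of serine protease inhibitors, was at most 0.163 TPM in C57 and went from 0.603, 0.592 and 0.421 TPM to 17.8, 17.9 and 16.4 TPM in SPRET, with a difference of 3.43 (adjusted p = 4.7e-16 by limma). Over promoters on either strand, TTCNNNNGAA was held by 17 of 163 genes with a positive difference and a RefSeq window (10.4%), 12 of 143 with a negative one (8.39%) and 594 of 9048 genes tested (6.56%). Among genes induced by IL-4 with such a window, it was held by 22 of 200 in C57 and 26 of 205 in SPRET. Both shares were above that of the positive genes. The EGR motif, GCGTGGGNG or GCGGGGGNG, was held by 33 of 163 (20.2%), 20 of 143 (14.0%) and 1340 of 9048 (14.8%). It was held by 29 of 200 genes induced in C57 and 37 of 205 induced in SPRET, both below the share of positive genes. Motif shares were not tested, and a match is no evidence of binding.

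Receptors for chemoattractants had 2 calls, both negative. Of 14 receptors 13 were tested, none was positive and C5ar1 and Fpr1 were negative, with a median of -0.158. In the time course 13 were tested, 1 was positive and 4 were negative, with a median of -0.537. The most negative there was Cx3cr1, at -3.08, which was at 0.28 in the 5-strain libraries. C5ar1, the receptor for complement C5a, fell in SPRET from 46.4, 46.4 and 48.3 TPM to 6.79, 7.01 and 6.19 TPM. In C57 it was at 33.6, 31.1 and 28.9 TPM before and at 19.9, 17.9 and 15.3 TPM after IL-4. Treated SPRET was lowest, and the difference was -1.86 (SE 0.16, adjusted p = 1.1e-09 by limma) and -1.59 in the time course. Fpr1, the formyl peptide receptor, was repressed in both strains, by responses of -2.37 and -3.57, with a difference of -1.20 that had the other sign in the time course.

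Of 26 inflammatory genes 25 were tested in the 5-strain libraries, 2 were positive and 6 negative, with a median of -0.226. In the time course 23 were tested, 2 were positive and 3 negative, with a median of -0.0346. Il1b, which encodes interleukin-1β, fell in SPRET from 622, 595 and 629 TPM to 141, 144 and 148 TPM. In C57 it was at 26.9, 24.9 and 34.6 TPM before and at 21.1, 22.3 and 25.9 TPM after IL-4, below SPRET in every library, and the difference was -1.79 (SE 0.14, adjusted p = 3.5e-10 by limma). It was -0.09 in the time course (adjusted p = 0.82 by limma), where C57 held at most 2.47 TPM. Cd14, the co-receptor for bacterial lipopolysaccharide, fell from 873 ± 19.2 to 242 ± 11.6 TPM in SPRET and was at 551 ± 21.3 and 418 ± 50.8 TPM in C57, a difference of -1.44 and of -0.53 in the time course, where it was not called. Nlrp3, the inflammasome sensor, had responses of -0.57 in C57 and -1.72 in SPRET, and a difference of -1.15, or of -0.90 in the time course, where it was not called. Ptgs2 (cyclooxygenase-2), which makes prostaglandins, rose from 7.48 ± 1.13 to 20.2 ± 1.02 TPM in C57 and was under 0.4 TPM in SPRET, a difference of -1.42 and of -2.60 in the time course. Cd80, a T cell costimulator, had a difference of -1.26. Il1rn, which encodes the antagonist of the interleukin-1 receptor, was induced in SPRET alone, from 31.9 ± 2.43 to 105 ± 1.68 TPM, against 119 ± 6.43 and 159 ± 16.2 TPM in C57, a difference of 1.28. It was -0.03 in the time course. Lcn2 (lipocalin-2), which starves bacteria of iron, was repressed in C57 from 83.7 ± 3.14 to 16 ± 0.359 TPM and was at 1.74 ± 0.459 and 0.82 ± 0.217 TPM in SPRET, a difference of 1.74.

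Interferon-stimulated genes had 2 positive calls and no negative one in the 5-strain libraries, where 1.83% of all genes tested were positive. All 32 were tested, 26 had a difference above 0, as did 69.5% of all genes tested, and the median was 0.333, or 0.159 after median-ratio scaling, where the median of all genes was 0.00252. Of the 32, 9 were called positive and none negative in the time course, with a median of 0.551. There 3.09% of all genes tested were positive and 3.14% negative. Ifit3 and Ifit2, antiviral proteins that bind viral RNA, were called with differences of 1.43 and 1.02. Both were repressed in C57, Ifit3 from 56 ± 1.19 to 17.7 ± 2.75 TPM and Ifit2 from 42.7 ± 3.95 to 20.4 ± 4.35 TPM. Neither exceeded 1.13 TPM in any SPRET library. The call of Ifit2 was lost after median-ratio scaling (0.91) and when any of 4 of the 12 libraries was left out, at the lowest 0.84 without C57 IL-4 replicate 3.

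MHC class II genes, which present antigen to helper T cells, were called once. Of 10 genes 9 were tested and the median was 0.0791, or -0.055 after median-ratio scaling. Cd74, the invariant chain, was at 665 ± 17.1 and then 1190 ± 94.5 TPM in C57 and at 639 ± 27.7 and 569.6 ± 19.1 TPM in SPRET. Its difference of -1.002 lay at the edge of the call and its size fell under 2-fold when any of 7 of the 12 libraries was left out, at the smallest -0.942 without C57 IL-4 replicate 3. H2-Aa and H2-Ab1 had differences of -0.51 and -0.32.

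Cholesterol synthesis genes shared a positive sign in the 5-strain libraries before scaling, mostly inside the 2-fold limit. All 24 of the 24 tested genes, of 25 listed, had a difference above 0, against 69.5% of all genes tested, and the median was 0.685. It was 0.51 after median-ratio scaling and 0.65 in the time course. The shared sign was lost after that scaling, where Fdft1, Pmvk, Ggps1 and Tm7sf2 were at -0.097, -0.068, -0.022 and -0.01 and the others above 0. Ggps1 was also below 0 in the time course, at -0.16. The median response was -0.384 in C57 and 0.23 in SPRET. Hmgcs1, which makes HMG-CoA early in the pathway, was at 14.9, 14.5 and 14 TPM before and at 10.3, 8.95 and 9.57 TPM after IL-4 in C57. In SPRET it was at 32.5, 33 and 32.6 TPM and then at 54.3, 53.8 and 54.8 TPM. Treated C57 libraries were all below basal ones and treated SPRET libraries all above, though neither response passed 2-fold, and the difference was 1.26 (SE 0.11, adjusted p = 2.9e-09 by limma). The list had 5 positive calls and none negative, and Mvd and Sc5d were among them, at 1.10 and 1.20. After median-ratio scaling 2 genes, Hmgcs1 and Sc5d, kept the call. In the time course 5 of 24 genes of the list were called positive and none negative.

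Of 22 genes for lipid uptake and oxidation, 20 were tested and Fabp4 and Acsl1 were positive, with a median of 0.213, or 0.0292 after median-ratio scaling. Fabp4, a fatty acid carrier of fat cells and macrophages, was at 556, 609 and 633 TPM in basal C57 and at 495, 508 and 519 TPM after IL-4. It rose in SPRET from 14.8, 12.2 and 16.2 TPM to 57.2, 65.3 and 61.8 TPM and stayed below C57 in every library, with a difference of 2.26 (SE 0.11, adjusted p = 2.2e-14 by limma) and one of 3.15 in the time course. Acsl1, which activates long fatty acids, was repressed in C57 (response -1.37) and had a response of -0.25 in SPRET. Its difference of 1.12 was 0.93 after median-ratio scaling and -0.35 in the time course.

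Matrix and coagulation genes held large differences of both signs. Of 22 genes 21 were tested, 4 were positive and 4 negative, with a median of 0.131 that was -0.0178 after median-ratio scaling. Mmp12, macrophage elastase, rose from 444, 406 and 435 TPM to 1419, 1371 and 1234 TPM in C57 and from 2.84, 4.46 and 2.92 TPM to 112, 119 and 119.6 TPM in SPRET. Treated SPRET was below basal C57 in every library, and yet the difference was 3.11 (SE 0.13, adjusted p = 3.9e-15 by limma). Mmp13, collagenase 3, was induced in C57 from 3.77 ± 0.371 to 54.5 ± 4.13 TPM and was at 0.288 ± 0.0724 and 1.14 ± 0.188 TPM in SPRET, with a difference of -2.81 and of -4.03 in the time course. F13a1, the clotting factor XIII subunit that marks tissue macrophages, fell in both strains. It went from 5.75, 7.43 and 7.32 TPM to 2.87, 2.87 and 2.47 TPM in C57 and from 119, 124 and 126 TPM to 3.04, 3.14 and 3.38 TPM in SPRET. SPRET was far above C57 before IL-4 and only slightly above after it, and the difference was -3.82 (SE 0.14, adjusted p = 2.9e-16 by limma). Serpinb2, an inhibitor of plasminogen activators, went from 0.633 ± 0.117 to 22.4 ± 1.63 TPM in SPRET and reached 1.03 ± 0.235 TPM in C57, a difference of 3.17 that was 0.69 in the time course at 24 hours and 2.88 at 6 hours. Spp1 (osteopontin) and F10 had differences of 1.51 and 1.12, and that of F10 was 0.93 after median-ratio scaling. Thbs1, thrombospondin-1, had a difference of -2.01 and one of -0.26 in the time course. Mmp19 was at -1.03, and its size fell just under 2-fold when any of 3 of the 12 libraries was left out, to -0.989 without SPRET IL-4 replicate 1.

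Of 25 lysosome genes, all tested, Atp6v0d2 and Ctsc were positive and Acp5 negative, with a median of 0.0764 that was -0.113 after median-ratio scaling. Atp6v0d2, a proton pump subunit needed for macrophage fusion, was induced in both strains, from 71.6 ± 2.37 to 361 ± 22.9 TPM in C57 and from 5.13 ± 0.632 to 75.1 ± 0.964 TPM in SPRET, a difference of 1.32. Ctsc (cathepsin C), which activates granule proteases, was at 22.9 ± 0.677 and 17.4 ± 2.0 TPM in C57 and at 42.2 ± 1.51 and 77 ± 1.88 TPM in SPRET, a difference of 1.24. Acp5, the tartrate-resistant phosphatase of osteoclasts, was at 250.3 ± 11.6 and 364 ± 18.9 TPM in C57 and at 331 ± 3.99 and 192 ± 3.81 TPM in SPRET, a difference of -1.32.

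Among genes outside the lists, Rnase2a, an eosinophil-type ribonuclease, was induced in both strains, from 2.31, 1.46 and 2.21 TPM to 15.2, 15.4 and 13.6 TPM in C57 and from 0.101, 0.298 and 0.479 TPM to 182, 177 and 198 TPM in SPRET. SPRET was below C57 before IL-4 and above it after, with a difference of 4.78 (SE 0.25, adjusted p = 2.2e-13 by limma) and one of 5.65 in the time course. Ms4a4a, a membrane protein of the MS4A family, went from 9.35, 14 and 10.8 TPM to 73.6, 85.4 and 57.2 TPM in C57 and from 0.772, 0.828 and 1.13 TPM to 223, 229 and 252 TPM in SPRET. That crossing gave a difference of 4.39 (SE 0.22, adjusted p = 7.8e-14 by limma), but the time course gave 0.80 at 24 hours (adjusted p = 0.2 by limma) and 2.25 at 6 hours. Rnase2a, Ms4a4a, Gm15056, Serpina3i, Gsta2, Cxcl1 to Cxcl3, Clec10a and Mgl2 all have close relatives in the genome, so that their values may include reads of other family members.

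Tmem176b, a membrane protein of antigen-presenting cells, fell in C57 from 45.6, 49.6 and 51.8 TPM to 18.1, 18.4 and 18.7 TPM and rose in SPRET from 1.9, 2.51 and 2.67 TPM to 12.6, 13 and 12.8 TPM. SPRET was lower under both conditions, with a difference of 3.41 (SE 0.17, adjusted p = 9.4e-14 by limma), and 3.47 in the time course. Fos, a subunit of the AP-1 factor, did the reverse. It rose in C57 from 5.56, 3.99 and 3.7 TPM to 15.1, 13.2 and 14.9 TPM and fell in SPRET from 10.9, 9.68 and 9.22 TPM to 2.81, 2.96 and 3.29 TPM, so that the order of the strains turned over without overlap. Its difference was -2.96 (SE 0.17, adjusted p = 5.6e-13 by limma), and -1.13 in the time course, or -0.945 without SPRET basal replicate 2 there, under the 2-fold limit.

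For some genes 1 strain had listed values near 0. SPRET reads were mapped to mm10 with known variants built in, and a loss of reads in mapping was not tested. Gsta2, a glutathione transferase of detoxification, rose in C57 from 1.46, 1.58 and 1.64 TPM to 29.7, 28.5 and 32.6 TPM and was listed at 0 in 5 of 6 SPRET libraries, with a difference of -3.68. Ifitm6 and Cav1 (caveolin-1) fell in C57, from 70 ± 10.1 to 8.59 ± 1.05 TPM and from 29.8 ± 1.76 to 4.67 ± 0.388 TPM, and were at most 0.254 and 0.082 TPM in SPRET. Their differences of 2.93 and 2.41 thus rest on the C57 response. Lrrc32 (GARP), which holds latent TGF-β, and Pgf, placental growth factor, were induced in C57 to 10.5 ± 0.439 and 18.1 ± 4.34 TPM with SPRET under 1 TPM, for differences of -2.85 and -3.33. These were -0.68 and -0.49 in the time course, neither past the call. Means of SPRET were under 1 TPM under both conditions for 43 of the 193 negative and 31 of the 218 positive genes, and those of C57 for 18 and 22.

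Further genes were among the 3 largest of their response class. Gadd45a, a DNA damage response gene, fell from 19.5 ± 2.24 to 4.3 ± 0.075 TPM in SPRET and was at 24.9 ± 2.07 and 33.9 ± 1.72 TPM in C57, a difference of -2.38. Gcnt2, a glycan-branching enzyme, fell from 10.4 ± 0.466 to 0.684 ± 0.0961 TPM in SPRET and was at 3.68 ± 0.301 and 3.4 ± 0.367 TPM in C57, a difference of -2.67. Igfbp4 and Ctla2b were repressed in both strains and more so in SPRET, with differences of -1.21 and -1.63. Dut, which clears dUTP, was induced in both, from 4.16 ± 0.349 to 99.5 ± 8.62 TPM in C57 and from 16.2 ± 0.533 to 68.2 ± 1.57 TPM in SPRET, a difference of -2.27. Slc40a1 fell from 15.7 ± 1.32 to 2.06 ± 1.1 TPM in C57 and from 1.52 ± 0.221 to 0.241 ± 0.0267 TPM in SPRET, a difference of 1.48. With a pseudocount of 0.1 TPM the difference of Slc40a1 was 0.74, which was not called (adjusted p = 0.116 by limma).

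Of the 10 macrophage genes, all tested, Itgam and Aif1 were called in the 5-strain libraries, both negative, and the median was -0.245. In the time course 2 of the 10 were called positive and 1 negative, with a median of -0.225. Itgam (CD11b) was at 98.3, 113 and 91 TPM in basal C57 and at 138, 127 and 117 TPM after IL-4, and fell in SPRET from 72.9, 71.1 and 71.2 TPM to 29.6, 28.4 and 30.6 TPM, a difference of -1.59 (adjusted p = 1.1e-10 by limma). Aif1 (IBA1) had responses of -0.64 and -2.19, and a difference of -1.56 that was -0.32 in the time course (adjusted p = 0.47 by limma). Markers of other blood and stromal cells were mostly absent. Of 33 such genes 9 were tested, and S100a8 and S100a9, abundant in neutrophils and inflamed monocytes, were positive. S100a8 fell in C57 from 94, 87.1 and 111 TPM to 14.6, 16.1 and 12.7 TPM and was at 394, 334 and 370.3 TPM before and 244, 271 and 261 TPM after IL-4 in SPRET, a difference of 2.17. S100a9 fell in C57 from 17 ± 2.08 to 4.9 ± 2.32 TPM and was under 0.75 TPM in SPRET, where S100a8 was high. Most of the other 31 genes were near 0, and Ly6g and Hbb-bt were among those listed at 0 in all 12 libraries. Some were not. The highest of the 31 by mean was Camp in basal SPRET, at 9.72 TPM, and Mcpt8 in treated SPRET, at 8.24 TPM. In C57 it was Dcn, at 5.16 TPM before and 4.15 TPM after IL-4. Mcpt8 was listed at 0 in 3 of 6 C57 libraries and in 0 of 6 SPRET libraries. The list summed to 114 to 137 TPM in basal C57, 21.6 to 30.9 in treated C57, 355 to 416 in basal SPRET and 262 to 289 in treated SPRET. Without these 2 genes it summed to 8.42 to 11.5 TPM in basal C57, 5.28 to 7.22 in treated C57, 20.8 to 24.0 in basal SPRET and 17.6 to 18.8 in treated SPRET. The part of other cells in the differences was not tested.

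The remaining lists had 1 call or none in the 5-strain libraries, where 1.83% of all genes tested were positive and 1.62% negative. In the time course these shares were 3.09% and 3.14%. Of 16 stress genes only Trib3, a pseudokinase of the amino acid stress response, was called. It rose from 6.49 ± 2.02 to 28.2 ± 1.06 TPM in C57 and was at 3.9 ± 0.128 and 4.02 ± 0.446 TPM in SPRET, a difference of -1.97 and of -3.02 in the time course, against a list median of 0.16, or -0.0212 after median-ratio scaling. In the time course 6 of the 16 were called positive and 6 negative, with a median of 0.315. None of 28 cell cycle genes was called, with a median of 0.403 and 24 above 0. Of these, 3 were called positive and 1 negative in the time course, with a median of 0.55. None of 21 glycolysis and hypoxia genes was called either, with a median of -0.273, but that median was 0.554 in the time course, where 7 were called positive. The sign of that median thus differed between the sets of libraries.

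**Figure D3:**
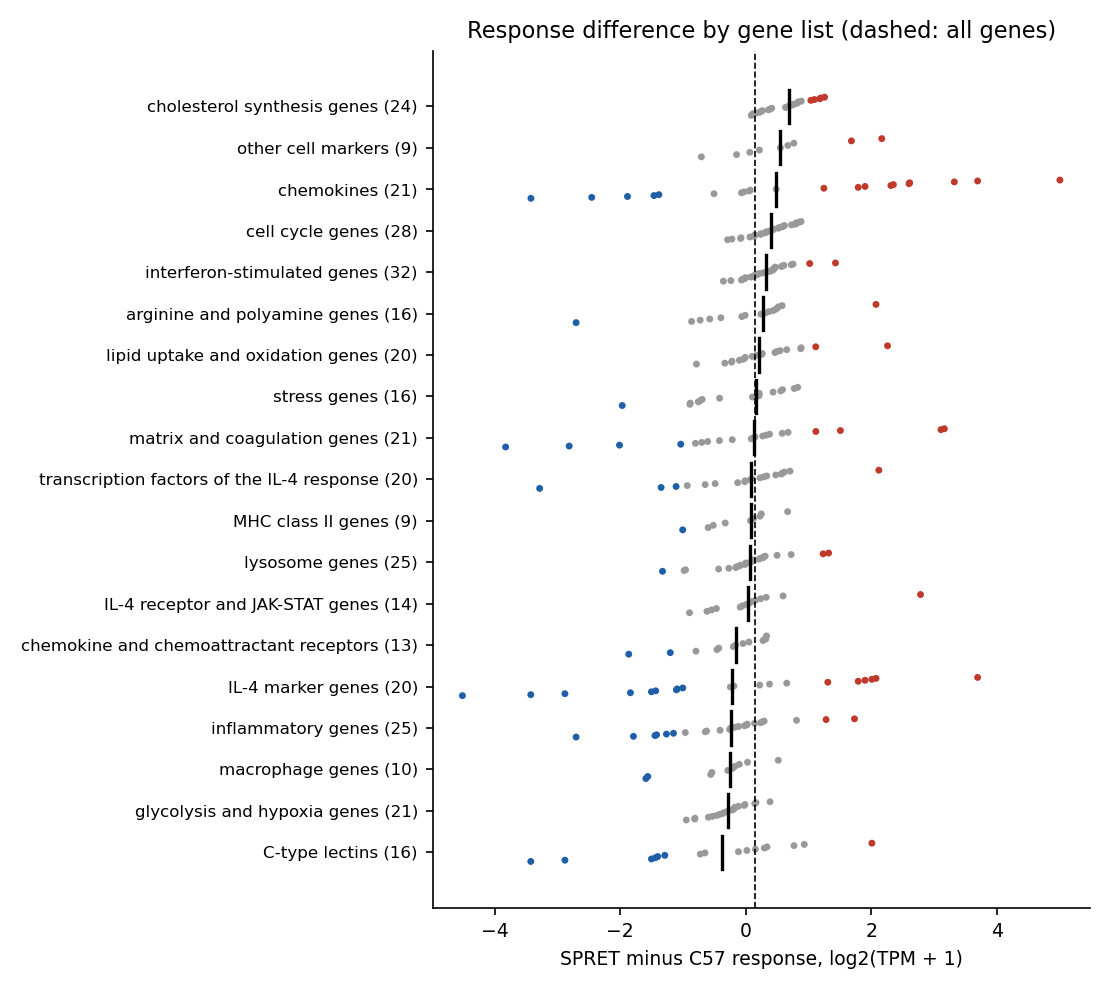
The SPRET minus C57 response difference in log2(TPM + 1), on the x axis, of each tested gene of 19 lists on the y axis, with the number tested in brackets. Red genes were called positive, blue genes negative and grey genes not called, a black bar marks the median of a list and the dashed line the median of all genes at 0.156. IL-4 markers, chemokines and matrix genes spread over several log2 units on both sides, and cholesterol synthesis genes lie together on the right.

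A response can differ because basal levels differ, because treated levels differ, or both. With a margin of 1.5-fold, 60 of the 218 positive genes (27.5%) were similar in basal cells and higher in SPRET after IL-4, as Ccl17 was. A further 46 (21.1%) were lower in basal SPRET and similar after IL-4, as Egr2 was, 57 (26.1%) were lower in SPRET under both conditions, as Arg1, Ccl9 and Mmp12 were, 45 (20.6%) were higher in SPRET under both, as Cxcl3 was, and 9 turned over, as Rnase2a and Ms4a4a did. Of the 193 negative genes, 69 (35.8%) were similar in basal cells and lower in SPRET after IL-4, 31 (16.1%) were higher in basal SPRET and similar after, as F13a1 was, 49 (25.4%) were lower in SPRET under both, as Chil3 and Ccl7 were, and 30 (15.5%) were higher in SPRET under both, as Il1b was. The other 12 were higher in basal SPRET and lower after IL-4, among them Mrc1 and Fos, and 2 were similar under both. In all genes tested, 51.2% were similar under both conditions. Of all genes, 16.1% were higher in SPRET under both, close to the 15.5% of negative genes, and 12.3% were lower under both. Similar in basal cells and then higher or lower in SPRET were 10.1% and 3.07% of all genes. Lower or higher in basal SPRET and then similar were 4.67% and 2.4%. The classes follow in part from the call itself, since a called difference has to come from 1 of the 2 levels.

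**Figure D4:**
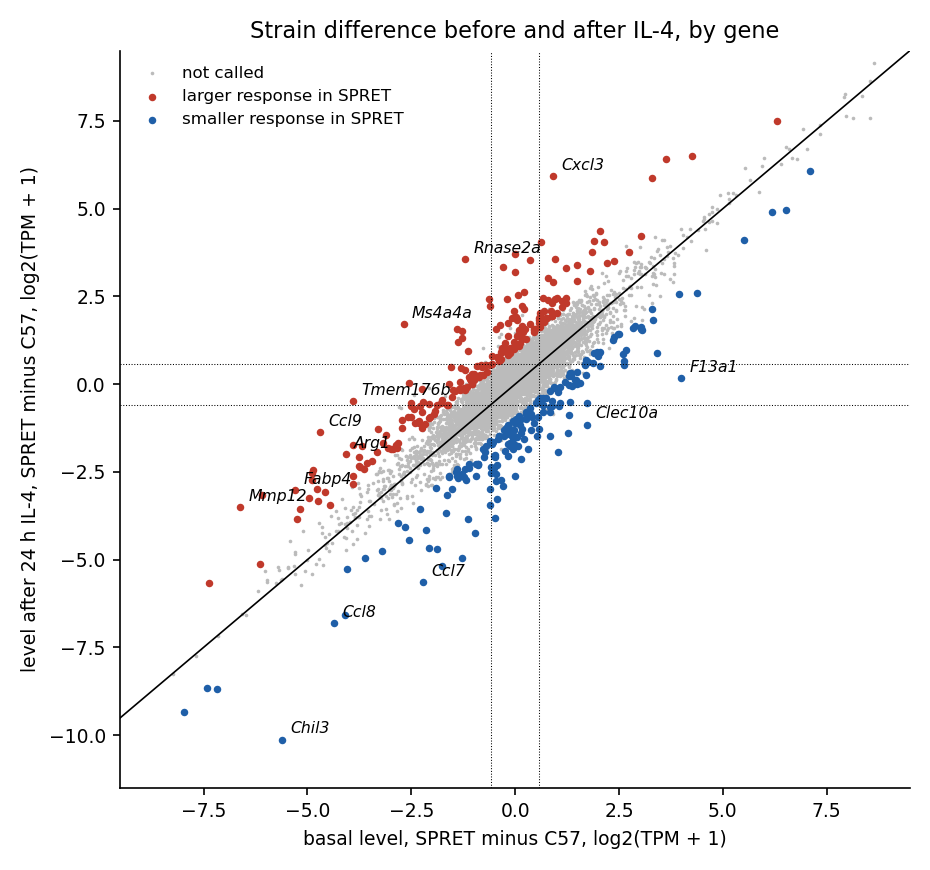
Each point is 1 gene tested, with the basal level of SPRET minus C57 on the x axis and the level after 24 hours of IL-4 on the y axis, in log2(TPM + 1), and dotted lines at 1.5-fold. Red genes (positive difference) lie above the line of equal strain differences and blue genes below it, and both reach from basal gaps of several log2 units to none.

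The time course was made of other libraries, 2 per group at 5.92 to 24.0 M tags for the 8 used, and tested 12088 genes. There 373 genes were positive (3.09%) and 379 negative (3.14%), with a median of -0.0416, so that the upward shift of the 5-strain libraries was not present. Of the 218 positive genes, 213 were tested, 193 (90.6%) had the same sign, 151 also had an adjusted p under 0.05 and 112 (52.6%) were called again. Of the 193 negative genes, 179 were tested, 159 (88.8%) had the same sign, 116 an adjusted p under 0.05 and 85 (47.5%) were called again. Of 11463 genes tested in both, 58.7% had the same sign. The 197 genes called in both with 1 sign were 47.9% of the 411 and 26.2% of the 752 calls of the time course, and 3 genes were called with opposite signs. Of the 10 largest positive and 10 largest negative differences that were named, 8 and 7 were called again. The exceptions were Ms4a4a and Serpinb2, and Mgl2, Pgf and Lrrc32, and all 5 had the same sign.

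The levels themselves can be set side by side for the genes with the largest differences. Cxcl3 in the time course was at 33.4 and 29.6 TPM in basal C57 and 17.9 and 12.3 TPM after 24 hours, and at 50.8 and 63.4 and then 710.3 and 653 TPM in SPRET. Rnase2a reached 272 and 206 TPM in SPRET against 3.3 and 4.24 TPM in C57. Chil3 reached 2034 and 2022 TPM in C57 and 3.22 and 1.4 TPM in SPRET. In these 3 genes the strain with the larger response was the same in both sets of libraries. Ms4a4a, in contrast, reached 14.1 and 9.63 TPM in SPRET in the time course, below the 31.2 and 34.3 TPM of C57, where it had been above C57 in the 5-strain libraries. Thbs1 was repressed in C57 there, from 3.11 and 3.4 to 1.11 and 1.0 TPM, whereas it was induced in C57 in the 5-strain libraries. Nos2, Il1b, Il1rn, Ccl2 and Aif1 were called in the 5-strain libraries and had time-course differences under 1 in size. The 2 tables were normalized separately, and levels are compared within each.

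**Figure D5:**
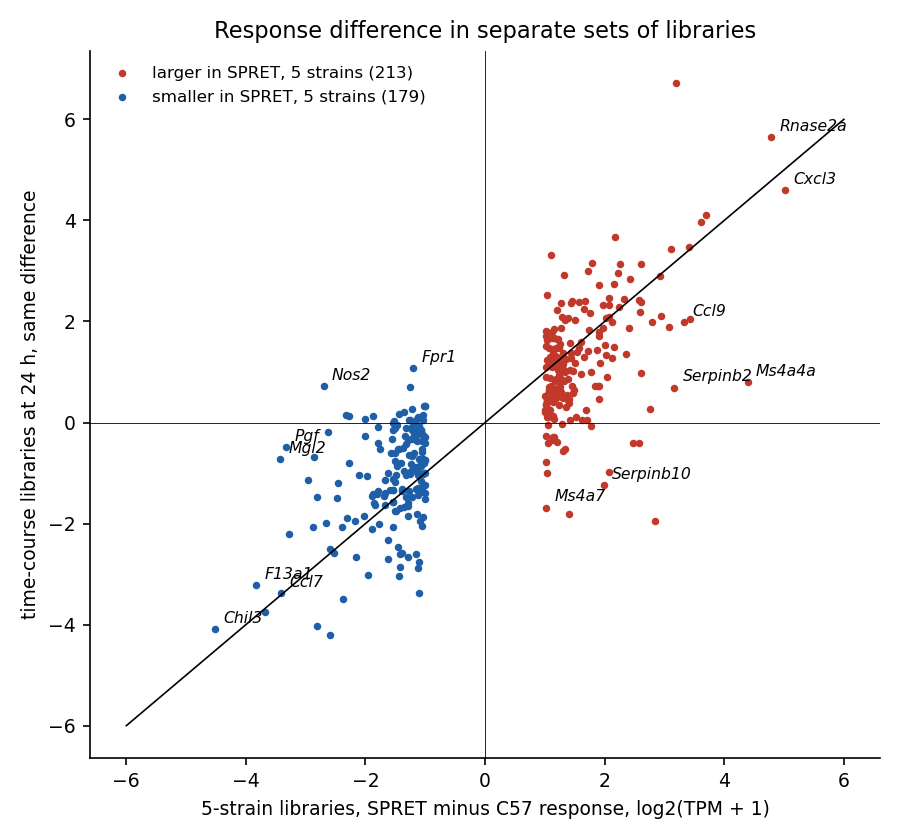
The response difference of called genes in the 5-strain libraries on the x axis against that in the time-course libraries at 24 hours on the y axis, in log2(TPM + 1), with 213 red genes (positive) and 179 blue genes (negative) and a line of equal values. Most points lie in the lower left and upper right, while Fpr1, Ms4a7 and Serpinb10 were called with the other sign.

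In F1 C57 × SPRET cells both alleles share 1 nucleus, and the same difference was taken between alleles, from 2 basal and 2 IL-4 libraries, as a description without a test. The deposited allele values are weighted scores and are compared within that table only. Of the positive genes 150 had values for both alleles, and 91 (60.7%) had the same sign between alleles, 20 of them (13.3%) beyond 2-fold. Of the negative genes 133 had values, and 96 (72.2%) had the same sign, 11 of them (8.27%) beyond 2-fold. Over all genes tested the same sign was seen in 50.7% and a difference of that sign beyond 2-fold in 1.44%. The median allele difference was 0.0984 for positive and -0.251 for negative genes, against 1.26 and -1.29 between the strains for the same genes.

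Some of the named genes are given to show the range. Between alleles, Ch25h had -3.23, Msx3 -2.01, Chil3 -1.71, Mgl2 -1.64 and Mrc1 -1.02, all with the sign of the strains. Positive values were 1.84 for Tmem176b, 1.57 for Spp1, 1.48 for Ccl9, 1.39 for Ccl17 and 1.31 for Ccl22. Near 0 were Arg1 (-0.18), Egr2 (-0.11), Cxcl2 (0.10), Mmp12 (0.12), Rnase2a (0.10), C5ar1 (-0.02) and Fos (-0.14). Ccl7, negative between the strains, was at 0.43.

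The other 3 strains of the table were set beside C57 and SPRET. For the 218 positive genes the response lay nearer to SPRET than to C57 in 21.1% in BALB, 34.9% in NOD and 42.7% in PWK, against 32.3%, 55.6% and 52.9% of all genes tested. For the 193 negative genes the shares were 38.3%, 47.7% and 37.8%. The median response of the positive genes was -0.364 in C57, 0.874 in SPRET and between -0.123 and 0.152 in the other strains. That of the negative genes was 0.931 in C57, -0.319 in SPRET and between 0.185 and 0.261 in the others. Since the genes were chosen on C57 and SPRET, a median between those of these strains follows from the choice. Cxcl3 had responses of 0.44 in BALB, -0.76 in NOD and 2.13 in PWK, Chil3 of 3.88, 0.99 and 1.16, and Clec10a of 1.92, 2.19 and 4.79. Nos2 was between -0.16 and 0.29 in all 3, so that its fall was called in SPRET alone among these strains.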

How the data were processed

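RNA-seq of poly(A) RNA was read from the authors' tables. The authors mapped single-end reads with STAR to a genome of each strain, built with MMARGE from mm10 and known variants, shifted the positions to mm10 and computed TPM per gene with HOMER. The deposited TPM values of 24537 genes are in 1 table of the 5 strains (29 libraries) and 1 of the time course (16 libraries). The TPM tables also hold fold changes and adjusted p-values that the authors made with DESeq2, and these were not used. The F1 table holds a score per allele that the authors made by weighting each allele's share of reads over variants, with depth unknown.

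Here log2(TPM + 1) was fitted with limma 3.58.1 in R 4.3.3, with a mean for every group of a table and a trended prior, for genes that reached 1 TPM in 2 or more libraries. All groups of a table share the estimate of spread. Adjusted p is Benjamini-Hochberg over the genes of a table. TPM keep no read counts, so no counting interval was given. The steps were also tested on simulated data.

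Genes named were the 10 largest differences of each sign with a group mean of at least 10 TPM and no short RNA, the 3 largest of each response class, the called members of 19 gene lists with up to 3 high members not called, and 7 genes that the study shows. Ms4a7, Serpinb10, Fcgr1, Irf4, Batf3, Klf2, Pmvk, Ggps1, Tm7sf2, Arg2, Retnla, Cx3cr1 and the genes named from the pathway were added after their values were seen. The members and lists were chosen with earlier results of these data known. Alternatives were pseudocounts of 0.1 and 5 TPM, no filter or 5 TPM, 2 scalings, fewer groups, a robust prior, a replicate block and leaving out each library. Chromatin data and human cells were not analysed here. Figures used matplotlib 3.10.9. A few genes that the rule names are not reported here.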

Additional observations from a re-analysis of the deposited data

Results flagged for a closer look

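Tmem176b and Fos are listed because IL-4 moved them in opposite directions in the 2 strains, past the call in each. The SPRET minus C57 difference was 3.41 for Tmem176b and -2.96 for Fos. Both kept their sign in the time course.

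Fpr1, Ms4a7 and Serpinb10 are listed because their difference was called with 1 sign in the 5-strain libraries and with the other in the time course. Ms4a7 and Serpinb10 were picked for this after their values were seen. Fpr1 had -1.20 and then 1.08, or 0.919 without SPRET basal replicate 1 of the time course, under the 2-fold limit. It was repressed in both strains in both sets, to 2.73 to 3.11 TPM in SPRET and 3.08 and 2.81 TPM in C57 in the time course. Ms4a7 had 1.02 and then -1.68. Its first value was 0.974 without C57 basal replicate 3, 0.968 without SPRET IL-4 replicate 3 and 0.911 without SPRET basal replicate 1, and 0.83 after median-ratio scaling, none past the call. SPRET held 6.16, 8.79 and 7.34 TPM before and 24.7, 21.5 and 25.9 TPM after IL-4 in the 5-strain libraries, and 11.9 and 7.08 TPM before and 2.47 and 2.06 TPM after in the time course. Serpinb10 had 1.99 and then -1.23. It was listed at 0 in all 6 C57 libraries of the 5 strains, and in SPRET it went from 0.797, 0.948 and 0.954 TPM to 6.1, 6.62 and 6.87 TPM there and from 8.37 and 7.74 TPM to 3.56 and 2.78 TPM in the time course. Groups of 3 or 2 libraries are too small to search for single libraries that stand apart.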

How the results depend on the processing

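The pseudocount moved the counts most. In the 5 strains, positive and negative differences numbered 425 and 296 with 0.1 TPM and 104 and 87 with 5 TPM, against 218 and 193. Induced and repressed genes numbered 412 and 350 in C57 and 431 and 331 in SPRET with 0.1 TPM, and 160 and 80, and 157 and 93, with 5 TPM. In the time course, 5 TPM gave 183 and 199 differences, against 373 and 379. Every other setting stayed within 1.5 times of these counts, among them no filter, a filter of 5 TPM, only the groups compared, a robust prior and both scalings.

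Leaving out 1 library gave 202 to 249 positive and 185 to 206 negative differences in the 5 strains and 347 to 409 and 356 to 402 in the time course. Induced genes then ranged from 261 to 290 in C57 and from 267 to 280 in SPRET, and repressed genes from 157 to 199 and from 193 to 199. Residuals of libraries with the same replicate number correlated at -0.0854 to 0.0733 in the 5 strains and -0.0792 to 0.0491 in the time course. Weak correlation cannot exclude that libraries shared an animal or culture, which the sources used here do not give. In the time course, with 2 libraries per group, values for the same and for other numbers mirror each other. A replicate block gave 218 and 193 differences in the 5 strains and 371 and 375 in the time course, and 272, 181, 279 and 193 genes induced and repressed in C57 and in SPRET. It changed none of the calls that were checked, of 90 named genes in the 5 strains and 70 in the time course.

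Of 90 named genes called in the 5 strains, 21 lost the call with a pseudocount of 5 TPM, 5 with 0.1 TPM, 7 after median-ratio scaling, 5 after quantile normalization and 6 without at least 1 library. Cdh1 changed sign with 5 TPM, to 0.1, since its basal level in C57 is below 1 TPM. With a margin of 2-fold for basal and treated levels, 70 positive and 70 negative genes differed after IL-4 alone, and 45 and 38 before IL-4 alone. With a pseudocount of 5, or with both alleles above 5, 62.0% and 62.1% of positive genes and 72.2% and 78.1% of negative genes had the same sign in the F1 cells. At a highest mean of at least 10 TPM, 93.4% and 86.8% had the same sign in the time course.

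Low genes are limited by depth. Depth ranged lower in C57 than in SPRET, with overlap, and its part in the differences was not tested.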
